A study of Rattus norvegicus with 43 samples.

Results

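Solute carriers are membrane proteins that move amino acids, sugars, ions, nucleosides, vitamins and other small molecules across the cell surface and across the membranes of organelles. The genes described here are those whose symbol on the array has the solute carrier form (Slc, family number, a, member number). Left out were 9 carriers of folate, amino acids, glucose, phosphate and iron: Slc19a1, Slc3a2, Slc7a5, Slc7a11, Slc2a1, Slc20a1, Slc20a2, Slc40a1 and Slc11a2. Without these 9, the array held 265 symbols of this form on 362 probe sets. Members were thus chosen by symbol and by measured level, over all groups together. A probe set was kept where its log2 level was above 4 on at least 4 arrays, and a gene was represented by the passing probe set with the highest mean, which left 121 genes of the 9095 tested in all. Of the 121, 99 were above 4 on every array and 22 only on some. A gene of the second kind that is high in only some groups had to differ between groups to pass. The other 144 symbols did not pass, and 137 of them were above 4 on no array. Just inside the filter lay Slc37a1, Slc4a11 and Slc39a14, where the level reached on 4 arrays was 4.06, 4.08 and 4.09, and just outside lay Slc10a7, Slc22a18 and Slc7a7, at 4.00, 3.90 and 3.89. Symbols of 2 genes, Slc4a1ap and Slc7a6os, have the form but are not known as carriers, and they were counted as a class of their own.

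The cells were A7r5, an established smooth muscle cell line of rat aorta, and every group was this one line. They were grown in custom-made DMEM with folic acid at 2.5 ng/ml (deficient), 10 ng/ml (sufficient) or 100 ng/ml (excess). RNA was taken after 7, 14 or 21 days and measured on 43 Affymetrix rat arrays, 4 per group for deficient and excess medium at day 7 and 5 in each of the other 7 groups. The question the design addresses is how too little or too much folate changes the messenger RNA of these cells over time. The labels do not say whether the arrays of a group come from separate cultures, so p-values measure the spread between arrays, which may be technical.

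In a vascular smooth muscle cell, sodium-calcium exchange helps to clear calcium after contraction, and nucleoside carriers take up adenosine, a signal that relaxes the vessel. Glucose, lactate and amino acid carriers feed growth and energy supply, mitochondrial carriers pass metabolites and nucleotides across the inner mitochondrial membrane, and zinc carriers hold the free metal low. Folate itself donates single carbons for purine and thymidylate synthesis, and nucleoside carriers supply nucleosides from outside the cell. None of these roles was measured here, where only messenger RNA levels were read.

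The 3 genes that moved most in excess medium at day 21, and whose shift was of like size without the arrays set apart by the RNA control described below, were Slc29a1, Slc1a3 and Slc35a2. The 250 bases before the start of each, on the gene's strand, are shown from RefSeq for GRCr8, to set the members that moved in opposite directions side by side. Capitals mark GC boxes (GGGCGG, either strand) and the sequence TGATGNAA (either strand), a core of amino acid response elements. The window of Slc29a1 was chr9:22896849-22897098 (plus strand), that of Slc1a3 chr2:59557809-59558058 (minus strand) and that of Slc35a2 chrX:17288614-17288863 (minus strand).
Slc29a1: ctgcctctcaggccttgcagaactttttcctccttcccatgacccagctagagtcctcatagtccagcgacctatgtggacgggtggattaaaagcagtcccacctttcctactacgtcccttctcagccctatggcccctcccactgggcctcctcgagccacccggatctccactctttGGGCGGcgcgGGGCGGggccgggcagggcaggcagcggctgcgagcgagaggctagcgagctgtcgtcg
Slc1a3: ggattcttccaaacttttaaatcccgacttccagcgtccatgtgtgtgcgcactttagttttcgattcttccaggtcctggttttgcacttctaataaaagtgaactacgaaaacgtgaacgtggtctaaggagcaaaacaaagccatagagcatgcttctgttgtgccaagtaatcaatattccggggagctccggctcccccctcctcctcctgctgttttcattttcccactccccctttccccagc
Slc35a2: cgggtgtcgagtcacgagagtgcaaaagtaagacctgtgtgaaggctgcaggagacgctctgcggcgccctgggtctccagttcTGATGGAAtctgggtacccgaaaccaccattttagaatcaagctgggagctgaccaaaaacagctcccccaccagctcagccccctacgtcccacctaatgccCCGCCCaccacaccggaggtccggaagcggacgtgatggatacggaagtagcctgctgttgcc
Slc29a1, which rose, held 2 GC boxes close to the start and none of the other motifs searched. Slc35a2, which fell, held 1 GC box and 1 TGATGNAA. The window of Slc1a3, which rose, held neither, nor CCAAT or CACGTG, which says only that these letters are not in it. GC boxes were found in 62.7% of the windows of the 102 members that had one in the table, in 61.2% of the windows of tested genes and in 32.4% of all 27457 windows. For CCAAT the shares were 38.2%, 36.7% and 34.3%, for CACGTG 12.7%, 8.9% and 5.8%, and for TGATGNAA 4.9%, 1.7% and 3.3%, in the same order. These are matches of letters and no measure of binding.

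The arrays of a group correlated between 0.9911 and 0.998. All 10 smooth muscle markers were measured, at a mean level between 10.53 and 11.28 on every array. Of the markers of other cells, 3 of 6 endothelial, 5 of 6 epithelial and 6 of 7 macrophage genes were at or below 4 on every array, among them Pecam1, Kdr, Epcam, Cdh1, Ptprc and Cd68. The mean levels of these lists were 3.17 to 3.57, 3.03 to 3.58 and 2.95 to 3.26 over the 9 groups. Their members that passed the filter were Egfl7 (4.76 to 6.26), Vwf (3.50 to 4.26), Krt8 (7.02 to 9.12) and Cd14 (5.20 to 6.72). Of 7 fibroblast markers, Pdgfra and Dcn were at or below 4 on every array, while Col1a1 had a median of 13.78, and the list had a mean level of 7.17 to 8.06. Of 8 skeletal and cardiac muscle markers, 1, Myog, was at or below 4 on every array, while Tnnc2 and Tnnt2 had medians of 11.99 and 11.25. Of the smooth muscle markers, 6 fell in excess medium at day 14 and 5 at day 21, and none rose. Of the 7 skeletal and cardiac muscle markers that passed the filter, 1 rose and 4 fell at day 14 (median -0.48), and 2 rose and 4 fell at day 21 (median -0.70). The mean level of the 8 was 6.61 to 6.76 in sufficient and 6.21 to 6.43 in excess medium at day 14, and 7.02 to 7.15 and 6.37 to 6.53 at day 21. Of the 5 fibroblast markers that passed the filter, 2 rose and 2 fell in excess medium at day 14, and 2 rose and 1 fell at day 21. The mean level of the 7 was 7.36 to 7.72 in sufficient and 7.64 to 7.72 in excess medium at day 14. At day 21 it was 7.48 to 7.62 and 7.82 to 8.06. A growth and an RNA control also moved with excess medium. The part of these marker lists and controls in the results was not tested. First, all 11 markers of dividing cells measured were called higher in excess medium at days 14 and 21. At day 7, 3 of the 11 were called higher and 0 lower, when 0.275% of all genes were higher. The mean level of the 11 at day 7 was 9.77 to 9.98 in sufficient and 9.96 to 10.17 in excess medium. It was 7.99 to 8.21 in sufficient and 9.38 to 9.53 in excess medium at day 14, and 7.52 to 7.63 and 8.72 to 8.84 at day 21. Second, the difference between the 3' and 5' probe sets of beta-actin, a measure of RNA integrity and labelling, had a median of 2.37 in excess medium at day 14 and 2.30 at day 21, against medians of 1.66 to 1.91 in the other 7 groups. It was above 2 on 8 arrays, which were 3 of 5 in each of those 2 excess groups and 2 of 5 in sufficient medium at day 7. Counts of excess calls, and the values of the genes they turn on, are therefore given without these 8 arrays too, which leaves 2 excess arrays at each of those days.

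Folate deficiency moved almost no carrier past the threshold, an adjusted p of 0.05 from limma with Benjamini-Hochberg adjustment over the 9095 genes. At day 7, 0 of the 121 were called, against 0% of all genes, with 11 at an unadjusted p under 0.05 and a smallest adjusted p of 0.34. At day 14, again 0 were called, against 0.088% of all genes (0.033% higher and 0.055% lower), with 14 at an unadjusted p under 0.05 and a smallest adjusted p of 0.14. At day 21, 1 gene was called, against 0.781% of all genes, and 23 had an unadjusted p under 0.05. Median log2 differences over the 121 were 0.01, -0.01 and 0.01, and those over all genes 0, -0.02 and -0.01. The single values ran from -0.39 to 0.38 at day 7, from -0.45 to 0.43 at day 14 and from -0.60 to 0.82 at day 21. Both ends of the last range were uncertain: Slc30a1 differed by 0.82 ± 0.34 (SE; adjusted p = 0.30) and Slc4a2 by -0.60 ± 0.26 (SE; adjusted p = 0.31).

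The gene called at day 21 was Slc1a3, the glutamate and aspartate transporter EAAT1. Its log2 levels were 6.04, 5.97, 5.85, 5.76 and 5.69 in deficient and 5.99, 6.23, 6.10, 6.31 and 6.02 in sufficient medium. The highest deficient arrays lay among the lowest sufficient ones, so the groups overlapped. The difference was -0.27 ± 0.07 (SE, n = 5 and 5; limma, adjusted p = 0.046), and over the alternatives it ran from -0.31 to -0.11 and missed the threshold in 15 of 22. The differences nearest below the threshold at each day, named after their values were seen, were Slc66a3 at day 7 (0.21 ± 0.05 SE; adjusted p = 0.34), Slc16a1 at day 14 (0.43 ± 0.12 SE; adjusted p = 0.14) and Slc25a5 at day 21 (0.17 ± 0.05 SE; adjusted p = 0.076).

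**Figure D1:**
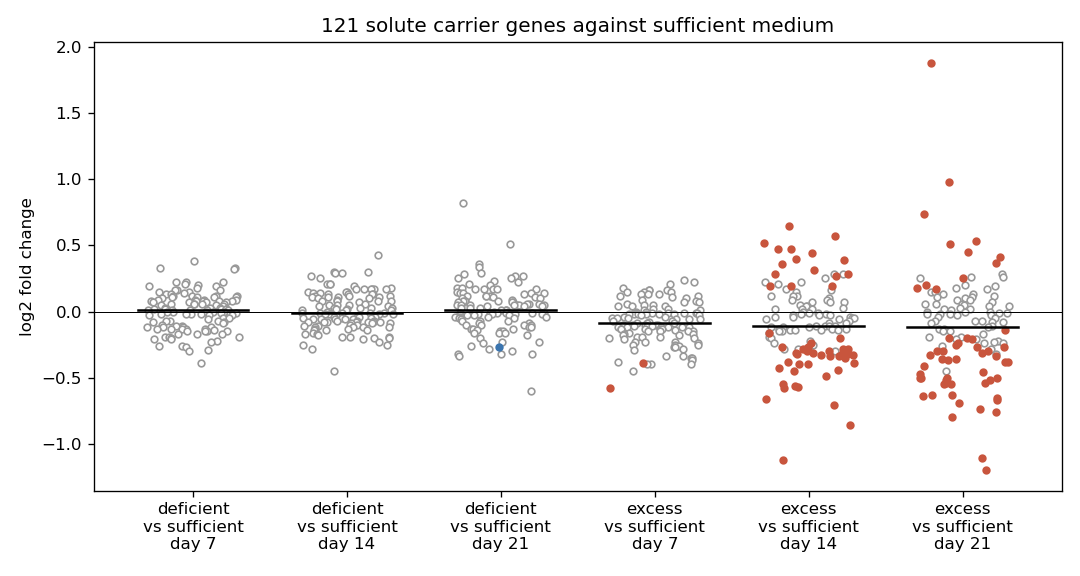
Log2 fold change of each of the 121 solute carrier genes against sufficient medium of the same day, in the 6 comparisons of folate; filled points passed an adjusted p of 0.05 and bars are medians. Deficient medium had 1 filled point over 3 days, while excess medium had 2 at day 7, 52 at day 14 and 55 at day 21.

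Excess folate at day 7 was followed by a fall of 2 carriers, against 2.37% of all genes called in either direction and 2.1% called lower, and the 121 had a median of -0.09 against -0.06 over all genes. Slc38a9, a lysosomal protein that senses arginine for the growth regulator mTORC1, read 4.87, 4.77, 4.95 and 5.19 in excess and 5.86, 5.14, 5.60, 5.37 and 5.63 in sufficient medium. Only 1 excess array reached the lowest sufficient one. The difference was -0.58 ± 0.12 (SE, n = 4 and 5; limma, adjusted p = 0.006), and -0.59 (adjusted p = 0.039) without the 8 arrays. Slc39a11, a member of the zinc importer family, fell by 0.39 on the log2 scale (SE 0.11; adjusted p = 0.045), and its difference was -0.21 (adjusted p = 0.49) without those arrays.

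At days 14 and 21 the carriers moved in large numbers and mostly down. At day 14, 16 rose and 36 fell, which is 13.2% and 29.8% of the 121, against 22.3% and 18.8% of all genes. At day 21, 12 rose and 43 fell, or 9.92% and 35.5%, against 24.4% and 19.3% of all genes. The total called was thus close to the background, 43% against 41.2% and 45.5% against 43.7%, while the share that fell was above it and the share that rose below it, with no test of either difference. The median of the 121 was -0.11 and -0.12, against 0.01 and 0.03 over all genes. Most shifts were small: 5 called genes at day 14 and 14 at day 21 reached 1.5-fold. Without the 8 arrays, 7 rose and 23 fell at day 14, when 23.5% of all genes were called, and 7 rose and 39 fell at day 21, when 28.8% were. Of the original calls, 27 and 43 were among them. The titles carry a serial number, in which 22 and 50 are repeated. It is above 45, in a possible second array series, on 3 of the 5 excess arrays of day 14. At day 21 it is above 45 on 2 excess and 2 sufficient arrays. Serials 53 to 56 are all excess arrays of these days above the beta-actin limit of 2. The series, the RNA control and excess medium thus overlap, and their separate parts were not tested. With serials up to 45 alone, 27 carriers were called at day 14 and 43 at day 21.

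The arrays of days 14 and 21 have no sample in common. Of the 52 and 55 calls, 22 fell at both days, 7 rose at both and 2, Slc8a1 and the taurine transporter Slc6a6, were called higher at day 14 and lower at day 21. Slc6a6 is named here after its values were seen, and its second probe set was lower at both days. Calls shared in direction were 55.8% of the day 14 calls and 52.7% of the day 21 calls, against 62.3% and 58.7% for all genes.

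Among the nucleoside carriers 1 of 4 rose at each day, and it was a different one. Slc29a1 encodes the equilibrative nucleoside transporter ENT1, the main route of adenosine uptake in many cells. Its log2 levels at day 21 were 6.18, 6.50, 6.23, 6.65 and 6.46 in excess against 4.50, 4.61, 4.69, 4.42 and 4.40 in sufficient medium, with deficient arrays at 3.94, 4.53, 4.58, 4.17 and 4.02. Every excess array lay far above every array of the other media. The difference of 1.88 ± 0.10 (SE, n = 5 and 5; limma, adjusted p = 8.9e-18), or 3.68-fold, was the largest among the 121 in this comparison, and it was 1.81 (adjusted p = 3.3e-11) without the 8 arrays. At day 14 the excess arrays read 3.50, 3.47, 3.49, 3.40 and 3.32 and the sufficient arrays 3.40, 3.40, 3.44, 3.45 and 3.28, so the groups overlapped there (0.04 ± 0.10 SE). The change in the excess effect from day 14 to day 21 was 1.84 ± 0.15 (SE; adjusted p = 9.8e-12). Slc29a1 was above 4 on 14 of the 43 arrays only, all of day 21, and the filter kept it through that day. Its folds thus rest on values near background and are inexact. At days 7 and 14 the excess and sufficient arrays lay below 4, where an excess effect could go unseen. The change in the effect between days is therefore uncertain.

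Slc29a2, the related transporter ENT2, rose at day 14 by 0.65 ± 0.12 (SE; 5.50 ± 0.32 against 4.85 ± 0.09, SD, n = 5 and 5; limma, adjusted p = 4.6e-05) with no overlap, and by 0.53 (adjusted p = 0.005) without the 8 arrays. At day 21 its difference was 0.17 ± 0.12 (SE). Its second passing probe set read 0.05 ± 0.13 (SE) at day 14 and did not show the rise.

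Amino acid and peptide carriers, 21 genes, split at day 14 into 6 higher and 5 lower, and at day 21 into 3 higher and 7 lower. Calls that also held without the 8 arrays were 3 higher and 2 lower at day 14, and 1 higher and 7 lower at day 21. Slc1a3 was the main riser at both days. At day 14 its levels were 7.75, 7.60, 7.75, 7.47 and 7.63 in excess and 6.86, 7.02, 7.15, 7.09 and 7.20 in sufficient medium, a difference of 0.57 ± 0.07 (SE; limma, adjusted p = 1.6e-08). At day 21 the excess arrays read 7.08, 7.11, 7.22, 7.11 and 7.07, against the sufficient values given above, a difference of 0.98 ± 0.07 (SE; adjusted p = 7.9e-15) or 1.98-fold. The groups did not overlap at either day. Without the 8 arrays the differences were 0.48 (adjusted p = 0.00028) and 0.96 (adjusted p = 2e-09).

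The rise of Slc1a3 rests on 1 of its 3 passing probe sets, the one with the highest mean (7.02 over all arrays). The other 2, with means of 4.36 and 4.20, gave -0.21 ± 0.15 and 0.43 ± 0.26 (SE) at day 14 and 0.07 ± 0.15 and -0.24 ± 0.26 (SE) at day 21. With the mean of the passing probe sets, the day 21 difference was 0.27.

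Other amino acid carriers moved less. Slc38a2, the amino acid-responsive transporter SNAT2, rose by 0.28 ± 0.05 (SE; adjusted p = 5.8e-06) at day 14 and by 0.18 ± 0.05 (SE; adjusted p = 0.001) at day 21, and its day 21 value was 0.14 (adjusted p = 0.089) without the 8 arrays. Slc7a6, which exchanges cationic for neutral amino acids, rose by 0.52 ± 0.12 (SE; adjusted p = 0.00098) at day 14. Slc38a4, or SNAT4, rose by 0.40 ± 0.15 and 0.51 ± 0.15 (SE) at the 2 days, and neither difference passed without the 8 arrays (0.30 and 0.42; adjusted p = 0.30 and 0.13). Slc38a9 at day 21 read 4.27, 3.84, 4.28, 4.14 and 4.13 in excess and 4.63, 4.98, 5.07, 4.92 and 5.07 in sufficient medium. No excess array reached a sufficient one, and the fall was 0.80 on the log2 scale (SE 0.11; adjusted p = 2e-07), with -0.88 (adjusted p = 1.6e-05) without the 8 arrays. Slc6a15, a neutral amino acid transporter, fell by 0.69 (SE 0.13; adjusted p = 5e-05) at day 21, close to background (3.69 ± 0.28 against 4.38 ± 0.17, SD, n = 5 and 5). At day 7 it lay at 3.41 in sufficient and 3.03 in excess medium. A gene this low passed the filter only through groups where it was higher, among them sufficient medium at day 21. Its p-value therefore cannot be read as support for the fall.

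Nucleotide sugar carriers, which load the Golgi and endoplasmic reticulum for glycosylation, had 3 of 6 lower at each day and none higher. Of these falls, 3 at day 14 and 2 at day 21 also held without the 8 arrays. The leading one was Slc35a2, the UDP-galactose transporter of the Golgi. At day 21 it read 6.46, 6.22, 6.60, 6.53 and 6.05 in excess and 7.56, 7.40, 7.34, 7.57 and 7.53 in sufficient medium. Every excess array was below every sufficient array, and the deficient arrays, at 7.38 to 7.57, lay among the sufficient ones. The difference was -1.11 ± 0.10 (SE, n = 5 and 5; limma, adjusted p = 5.6e-12), or 2.16-fold lower, and -1.14 (adjusted p = 2.8e-10) without the 8 arrays. At day 14 the excess arrays read 6.94, 7.38, 6.85, 6.96 and 6.62 and the sufficient arrays 7.62, 7.42, 7.48, 7.52 and 7.48, a difference of -0.55 ± 0.10 (SE; adjusted p = 2.3e-05). One excess array of day 14, at 7.38, came close to the lowest sufficient one, at 7.42. At day 7 the difference was -0.34 and did not pass. Slc35a3, the UDP-N-acetylglucosamine transporter, fell by 0.55 (SE 0.19; adjusted p = 0.015) at day 21, and its difference was -0.35 (adjusted p = 0.28) without the 8 arrays.

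**Figure D2:**
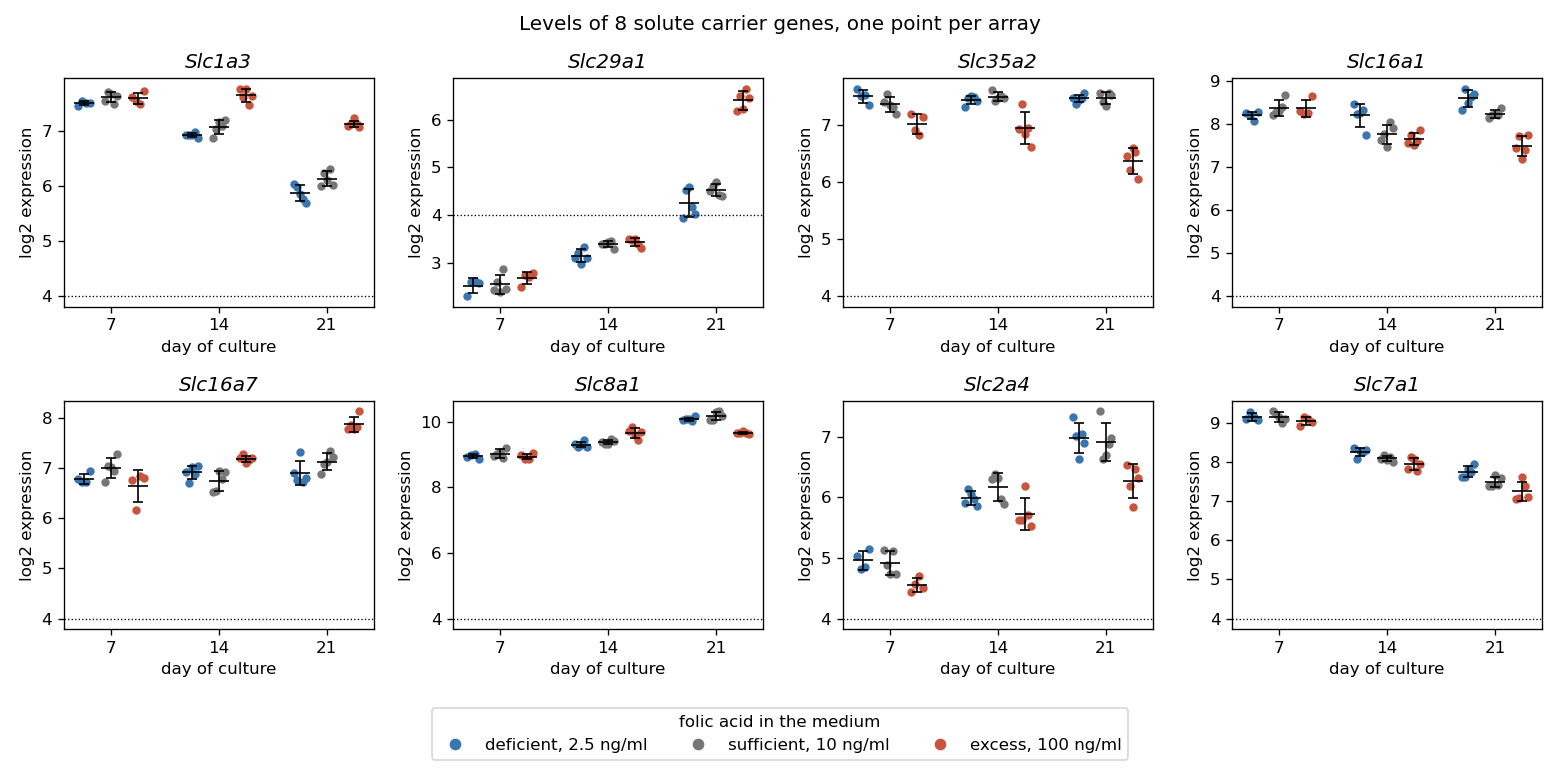
Log2 expression of 8 solute carrier genes on each array, by day of culture and folic acid; lines are group means with SD (n = 4 or 5) and the dotted line is the filter level of 4. At day 21 the excess arrays of Slc29a1 lay between 6.18 and 6.65 and those of Slc35a2 between 6.05 and 6.60, apart from both other media.

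Monocarboxylate and other carboxylate carriers, 3 genes, had 1 higher and 1 lower at day 14 and 1 higher and 2 lower at day 21, and these calls held without the 8 arrays. Slc16a7, or MCT2, which takes up lactate and pyruvate with high affinity, read 7.77, 7.85, 7.77, 7.81 and 8.13 in excess and 6.88, 7.08, 7.11, 7.33 and 7.22 in sufficient medium at day 21. The groups did not overlap, and the rise was 0.74 ± 0.11 (SE; limma, adjusted p = 1.4e-06). At day 14 it was 0.44 ± 0.11 (SE; adjusted p = 0.0022), again with no overlap. Slc16a1, or MCT1, the common lactate carrier, read 7.44, 7.72, 7.18, 7.39 and 7.73 in excess and 8.14, 8.20, 8.23, 8.20 and 8.37 in sufficient medium at day 21. It fell by 0.74 (SE 0.12; adjusted p = 2.7e-06) with no overlap, while at day 14 its difference was -0.11. Without the 8 arrays the day 21 values were 0.69 (adjusted p = 0.0011) for Slc16a7 and -0.65 (adjusted p = 0.0019) for Slc16a1. In deficient medium at day 21 Slc16a1 lay at 8.32, 8.81, 8.48, 8.63 and 8.69, mostly above the sufficient arrays, with a difference of 0.36 ± 0.12 (SE) that did not pass (adjusted p = 0.16).

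Sugar and polyol carriers had 4 of 6 lower at day 14 and 2 lower at day 21, none higher, and 3 and 2 of these falls held without the 8 arrays. Slc2a4, the insulin-responsive glucose transporter GLUT4, read 6.54, 6.19, 5.84, 6.47 and 6.32 in excess and 7.42, 6.63, 6.69, 6.88 and 6.97 in sufficient medium at day 21. The highest excess array lay just below the lowest sufficient one, and the fall was 0.65 (SE 0.14; limma, adjusted p = 0.00022), with -0.55 (adjusted p = 0.015) without the 8 arrays. At day 14 it fell by 0.44 (SE 0.14; adjusted p = 0.01), with 1 excess array at 6.19 among the sufficient values.

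Calcium and magnesium carriers, 5 genes, had 3 higher and none lower at day 14, and 1 higher and 2 lower at day 21. None of the 3 rises held without the 8 arrays, and the 2 falls did. Slc8a1, the sodium-calcium exchanger NCX1, read 9.71, 9.84, 9.60, 9.45 and 9.69 in excess and 9.39, 9.32, 9.31, 9.47 and 9.42 in sufficient medium at day 14, and 9.66, 9.65, 9.71, 9.66 and 9.62 against 10.04, 10.04, 10.29, 10.32 and 10.18 at day 21. The 5 excess arrays of day 21 were closely alike and all below the sufficient ones. The difference turned from 0.28 ± 0.06 (SE; adjusted p = 0.00079) to -0.52 ± 0.06 (SE; adjusted p = 2.4e-08). Without the 8 arrays it was 0.19 (adjusted p = 0.11) and -0.52 (adjusted p = 2.3e-05). The change in the excess effect between the 2 days was -0.79 ± 0.09 (SE; adjusted p = 7.2e-08), and -0.71 (adjusted p = 0.00057) without them. The magnesium carriers Slc41a3 and Slc41a2 rose at day 14 by 0.47 and 0.39, and their differences were 0.19 (adjusted p = 0.13) and 0.09 (adjusted p = 0.70) without the 8 arrays. Slc24a3, a potassium-dependent sodium-calcium exchanger, rose at day 21 by 0.17, a call that was lost without the 8 arrays (adjusted p = 0.12), and its probe sets differed in sign.

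Metal carriers, 17 genes, had 1 higher and 4 lower at day 14, and 3 higher and 6 lower at day 21. Of these, none and 1 held without the 8 arrays at day 14, and 2 and 4 at day 21. The largest fall by size at both days was that of Slc30a1, the zinc exporter ZnT1 of the cell surface, whose transcription rises with free zinc. At day 14 it read 2.80, 3.16 and 3.48 on the excess arrays above the beta-actin limit and 5.01 and 4.56 on the other 2, against 4.74 to 5.38 in sufficient medium. At day 21 the excess arrays above the limit read 3.05, 3.50 and 3.01 and the other 2 read 4.12 and 4.48, against 4.04 to 5.65 in sufficient medium. In sufficient medium at day 7, the 2 arrays above the limit read 2.76 and 2.68 and the other 3 read 3.80, 4.29 and 4.39. The low values thus lay on the arrays above the limit in all 3 groups. With all arrays the differences were -1.12 ± 0.34 (SE; adjusted p = 0.0089) and -1.20 ± 0.34 (SE; adjusted p = 0.0044), and without the 8 arrays -0.14 (adjusted p = 0.77) and -0.54 (adjusted p = 0.18).

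**Figure D3:**
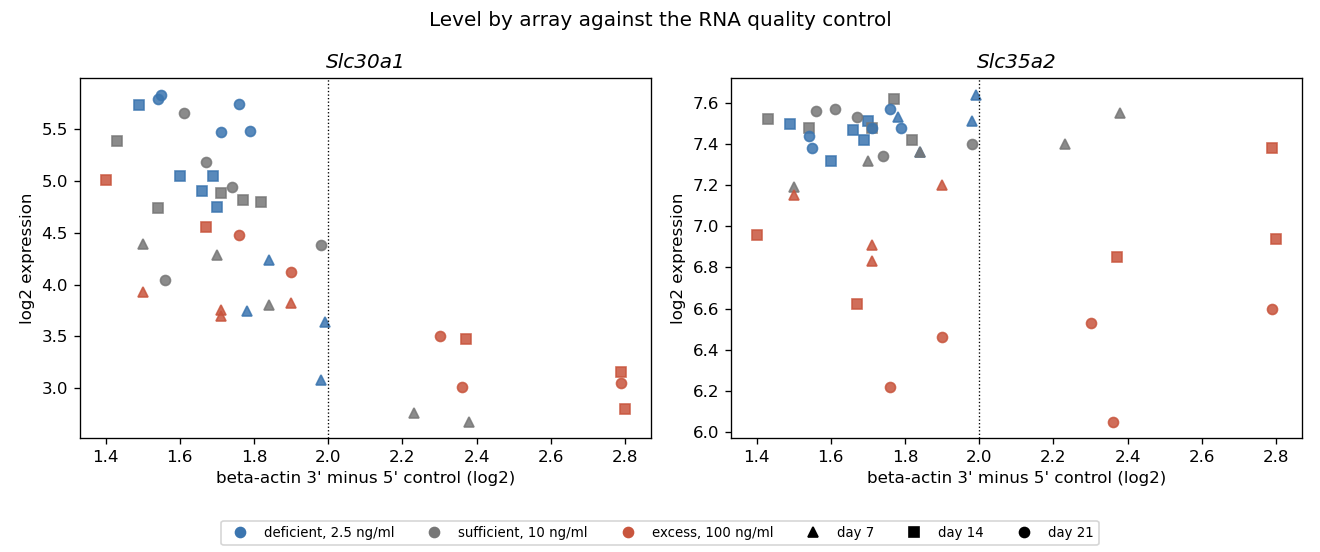
Log2 level of Slc30a1 and Slc35a2 on each of the 43 arrays against the beta-actin 3' minus 5' difference of that array; colour gives folic acid, shape the day, and the dotted line is the limit of 2. All 8 arrays right of the line read 3.50 or less for Slc30a1, whereas Slc35a2 was low on the excess arrays of day 21 on both sides of it.

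Of the other metal carriers, Slc39a6, or ZIP6, a zinc importer, fell by 0.45 (SE 0.07; limma, adjusted p = 4.4e-06) at day 14, and its value was -0.50 (adjusted p = 2.7e-05) without the 8 arrays. Slc48a1, a heme transporter of endosomes and lysosomes, fell by 0.63 (SE 0.12; adjusted p = 3.9e-05) at day 21, with -0.62 (adjusted p = 0.0046) without them. Slc39a13, or ZIP13, and Slc30a6, a zinc carrier of the Golgi, rose at day 21 by 0.45 ± 0.12 (SE; adjusted p = 0.0015) and 0.25 ± 0.06 (SE; adjusted p = 0.00087), and both passed without the 8 arrays. Slc39a3, or ZIP3, rose by 0.41 ± 0.13 (SE; adjusted p = 0.012), did not pass without them (0.27; adjusted p = 0.29), and had a second probe set of the opposite sign.

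Mitochondrial carriers were the largest class, with 26 genes. At day 14, 2 rose and 11 fell, with none and 8 that held without the 8 arrays, and at day 21, 2 rose and 10 fell, with 1 and 8 that held. Slc25a33, a pyrimidine nucleotide carrier, fell by 0.57 (SE 0.12; limma, adjusted p = 0.00024) at day 14 and by 0.54 at day 21, and passed at both days without the 8 arrays. Slc25a39, which brings glutathione into mitochondria, fell by 0.43 (SE 0.11; adjusted p = 0.003) at day 14 and by 0.36 at day 21, also at both days without them. Slc25a27, known as uncoupling protein UCP4, fell by 0.64 (SE 0.13; adjusted p = 6.7e-05) at day 21. Slc25a12, the aspartate-glutamate carrier aralar, rose by 0.37 ± 0.10 (SE; adjusted p = 0.0036) at day 21, and by 0.39 (adjusted p = 0.044) without the 8 arrays. Slc25a1, the citrate carrier, fell by 0.56 (SE 0.23; adjusted p = 0.047) at day 14 and varied widely within its groups (6.72 ± 0.42 against 7.28 ± 0.42, SD, n = 5 and 5). Without the 8 arrays the difference was -1.02 (adjusted p = 0.0086). Over the alternatives it ran from -1.02 to -0.43 and missed the threshold in 9 of 22. Slc25a51l1 fell by 0.58 at day 14 but read -0.29 (adjusted p = 0.066) without the 8 arrays, and its signal cannot be told from that of the near-identical Slc25a51.

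Chloride, sulfate and phosphate carriers had 1 of 3 higher and 1 lower at each day. The rise held at both days without the 8 arrays, and the fall at day 14 only. Slc12a2, the sodium-potassium-chloride cotransporter NKCC1, rose by 0.47 ± 0.08 (SE; limma, adjusted p = 1.7e-05) at day 14 and 0.53 ± 0.08 (SE; adjusted p = 1.3e-06) at day 21, with 0.39 and 0.52 without the 8 arrays (adjusted p = 0.0076 and 0.00031). Slc12a4, a potassium-chloride cotransporter, fell by 0.49 (SE 0.17; adjusted p = 0.018) at day 14. Bicarbonate and sodium-proton exchangers had 3 of 6 lower at day 14, none of which held without the 8 arrays. They included Slc4a2, the anion exchanger AE2, which fell by 0.71 (SE 0.26; adjusted p = 0.024) in groups that overlapped, and 1 of 6 was lower at day 21, which held without them. Lipid, bile acid and organic ion carriers had 1 of 7 lower at day 14 and 4 lower at day 21, of which none and 3 held without the 8 arrays. Slc22a5, the carnitine transporter OCTN2, fell by 0.67 (SE 0.15; adjusted p = 0.00047) at day 21, when its difference at day 14 had been 0.02, and by 0.64 (adjusted p = 0.029) without the 8 arrays. Neurotransmitter, creatine and osmolyte carriers had 1 of 5 higher and 2 lower at day 14, and 2 lower at day 21. Of these, 1 of the 2 falls of day 14 and both falls of day 21 held without the 8 arrays, and the rise did not. Slc17a6, the vesicular glutamate transporter VGLUT2, fell by 0.66 (SE 0.10; adjusted p = 3.5e-06) and 0.76 (SE 0.10; adjusted p = 1.8e-07), from levels near background. Slc6a8, the creatine transporter, fell by 0.86 (SE 0.22; adjusted p = 0.0022) at day 14 and did not pass without the 8 arrays (-0.63; adjusted p = 0.14). Among the 3 genes not classed and the 2 symbols that are not carriers, none was called at either day.

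Vitamin and choline carriers had 1 of 7 lower at day 14 and 3 lower at day 21, none higher, and these 4 calls held without the 8 arrays. Slc23a2, the vitamin C transporter SVCT2, lay at 7.25 ± 0.16 in excess and 7.75 ± 0.14 in sufficient medium at day 21 (SD, n = 5 and 5), a fall of 0.50 (SE 0.10; limma, adjusted p = 5.3e-05). Slc44a2, a choline transporter-like protein, fell by 0.63 (SE 0.13; adjusted p = 0.00011) at day 21. Slc19a2, the thiamine transporter of the same family as the reduced folate carrier, fell by 0.32 (SE 0.10; adjusted p = 0.0084) at day 14 and by 0.27 (SE 0.10; adjusted p = 0.026) at day 21. Slc5a6, which carries biotin and pantothenate, and the riboflavin carriers Slc52a2 and Slc52a3 did not pass in any comparison of folate. Their excess differences at day 21 were -0.02 ± 0.11, 0.13 ± 0.09 and -0.08 ± 0.10 (SE), and the probe sets of Slc52a3 differed in sign. The mean of Slc52a3 was below 4 at day 21, where an excess effect could go unseen. The proton-coupled folate transporter Slc46a1 reached 3.68 at most on any array, and the mitochondrial folate carrier Slc25a32 was above 4 on fewer than 4 arrays (highest 4.50). Slc23a1 reached 2.11 at most.

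More carriers were called for time in sufficient medium than for either folate change. From day 7 to day 21, 42 rose and 29 fell, 58.7% of the 121 against 62.6% of all genes (29.6% higher and 33.1% lower), with medians of 0.06 and -0.02. Of these, 37 reached 1.5-fold. Without the 8 arrays, 69 were called, 62 of them in common, against 56.9% of all genes. Over the same time the 11 markers of dividing cells fell, with a median of -2.30. Of the 7 skeletal and cardiac muscle markers measured, 6 rose and 1 fell, with a median of 1.51, and of the 10 smooth muscle markers 6 rose and none fell, with a median of 0.21. The part of these lists in the results on time was not tested.

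**Figure D4:**
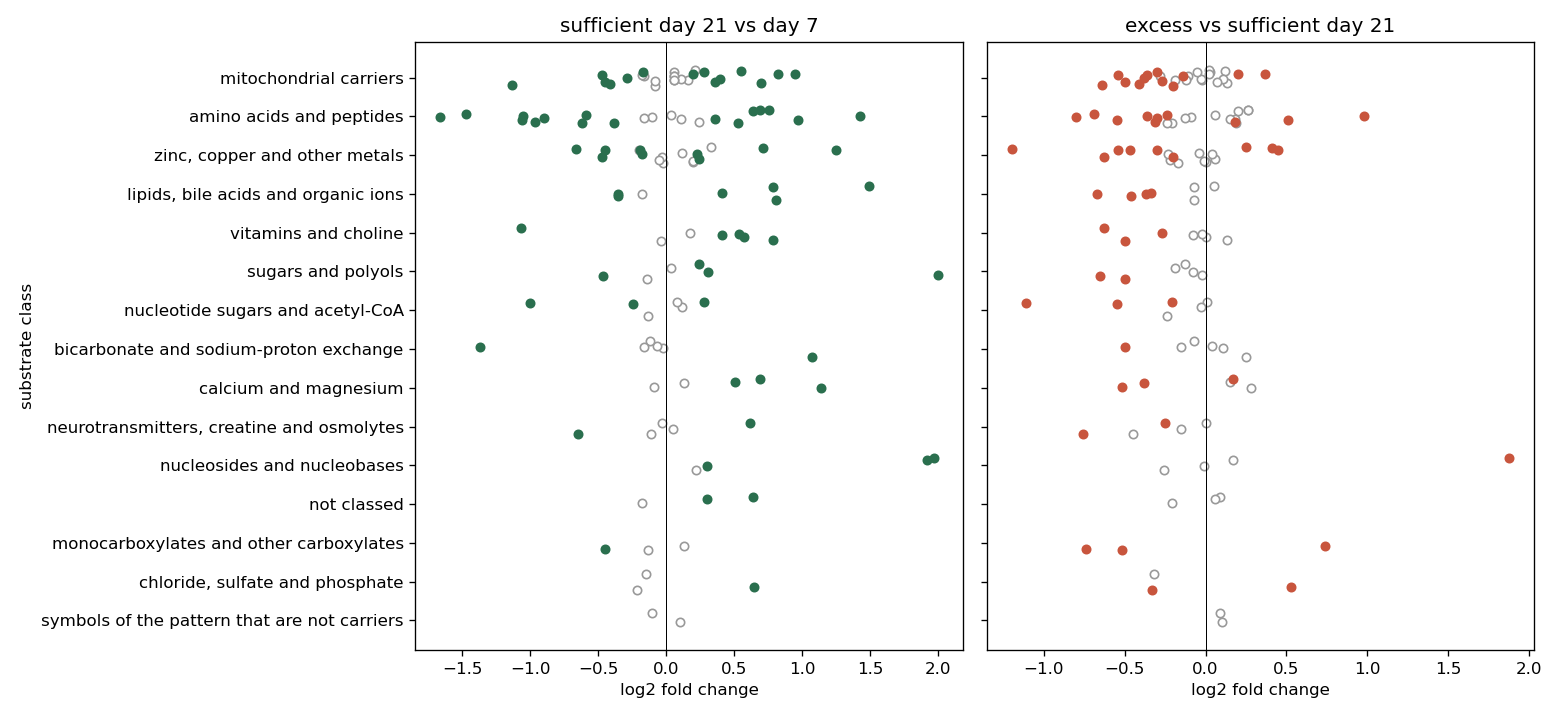
Log2 fold change of each of the 121 genes by substrate class, on the left from day 7 to day 21 in sufficient medium and on the right in excess against sufficient medium at day 21; filled points passed an adjusted p of 0.05. In excess medium the nucleotide sugar and sugar classes had 3 of 6 and 2 of 6 points filled below 0, with none above. The lipid and vitamin classes had 4 of 7 and 3 of 7, again with none above. The same held for the bicarbonate and neurotransmitter classes, with 1 of 6 and 2 of 5. Of the 121 genes 35.5% were called lower, against 19.3% of all genes.

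Amino acid carriers had 7 higher and 9 lower with time. Slc7a1, the cationic amino acid transporter CAT1 that supplies arginine, read 9.30, 9.24, 9.14, 9.00 and 9.09 at day 7, 8.09, 8.17, 8.05, 8.14 and 8.01 at day 14, and 7.39, 7.38, 7.68, 7.41 and 7.60 at day 21. No array of one day reached the range of the next. The fall was 1.66 on the log2 scale (SE 0.09; limma, adjusted p = 4.4e-19), or 3.17-fold, and its second probe set gave -1.96 ± 0.14 (SE). Slc1a3 fell by 1.47 (SE 0.07; adjusted p = 6.9e-21), by 0.77 in its second probe set, and rose by 0.34 ± 0.26 (SE) in the third. Slc7a6 fell by 1.06 (SE 0.12), while Slc38a6, a relative of the glutamine transporters, rose by 1.43 ± 0.12 (SE; adjusted p = 3.5e-13). Slc38a6 lay at 4.01 ± 0.16 at day 7 (SD, n = 5), close to the filter level, so the size of its rise is not exact.

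Nucleoside carriers had 3 of 4 higher with time and none lower. Slc28a2, the sodium-coupled purine nucleoside transporter CNT2, rose from 3.11 ± 0.19 to 5.03 ± 0.28 (SD, n = 5 and 5) by 1.92 ± 0.13 (SE; limma, adjusted p = 8e-16). Slc29a1 rose from 2.55 ± 0.20 to 4.52 ± 0.13 (SD, n = 5 and 5) by 1.97 ± 0.10 (SE; adjusted p = 3e-19). Both were below 4 at day 7, so the filter kept them through the later days and the size of their rise is not exact. A gene this low at day 7 had to be higher in later groups to pass. Their p-values and the class count therefore cannot be read as support for a rise of the class. At day 21 Slc28a2 lay at 5.02 ± 0.22 in excess medium (SD, n = 5), next to its sufficient level of 5.03.

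Slc2a4 rose with time from 5.13, 4.88, 4.73, 5.12 and 4.73 at day 7 to the day 21 values above, by 2.00 ± 0.14 (SE; limma, adjusted p = 1.4e-15) or 4.00-fold, with 1.99 ± 0.21 (SE) in its second probe set. The calcium exchanger Slc8a1 rose by 1.14 ± 0.06 (SE; adjusted p = 2.6e-18), and the fatty acid transporter Slc27a1, or FATP1, by 1.49 ± 0.11 (SE; adjusted p = 5.6e-15). In each of these 3 genes the groups did not overlap. The calcium and magnesium class had 3 of 5 higher and none lower, the lipid class 4 of 7 higher and 2 lower, and the sugar class 3 of 6 higher and 1 lower. The anion exchanger Slc4a3 rose by 1.07 ± 0.13 (SE) while Slc4a2 fell by 1.37 (SE 0.26; adjusted p = 1.6e-05). Slc35a4, a relative of the nucleotide sugar carriers, fell by 1.00 (SE 0.11).

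Mitochondrial carriers had 8 higher and 6 lower of 26 with time. Slc25a10, the dicarboxylate carrier, fell by 1.13 (SE 0.15; limma, adjusted p = 1.7e-08), and Slc25a5, the adenine nucleotide translocase ANT2, by 0.47 (SE 0.05; adjusted p = 6.5e-11). Slc25a27 rose by 0.95 ± 0.13 and Slc25a36, a pyrimidine nucleotide carrier, by 0.82 ± 0.13 (SE). Slc25a27 lay at 4.20 ± 0.24 at day 7 (SD, n = 5), close to the filter level, so the size of its rise is not exact. Vitamin and choline carriers had 4 of 7 higher and 1 lower. Slc23a2 rose by 0.79 ± 0.10 (SE; adjusted p = 3.2e-09), and Slc52a3 fell by 1.07 (SE 0.10; adjusted p = 1.3e-11). Metal carriers had 4 of 17 higher and 5 lower. The rise of Slc30a1 by 1.25 ± 0.34 (SE) includes the 2 day 7 arrays above the beta-actin limit, which were the lowest of that group.

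The excess effect differed between day 21 and day 7 for 27 carriers, 9 in the direction of higher and 18 of lower values, or 22.3% of the 121 against 24.5% of all genes. By direction these were 7.44% higher and 14.9% lower, against 17% and 7.53% of all genes. The corresponding difference for deficiency passed for 0 of the 121 in limma, against 0.044% of all genes (0.022% higher and 0.022% lower), with 22 at an unadjusted p under 0.05 and a smallest adjusted p of 0.14. Excess effects that shifted upward were led by Slc29a1 (1.75 ± 0.15 SE; adjusted p = 2.3e-11), Slc16a7 (1.10 ± 0.17 SE; adjusted p = 3.9e-06) and Slc1a3 (1.00 ± 0.10 SE; adjusted p = 6.2e-10). Slc29a1 lay below 4 in excess and sufficient medium at day 7, where an effect could go unseen. The Slc16a7 difference was -0.35 ± 0.12 (SE; adjusted p = 0.11) at day 7, so part of its value comes from that day. The value of Slc1a3 rests on the probe set with the highest mean: it ran from 0.30 to 1.05 over the alternatives, and with the mean of the passing probe sets it was 0.30 and missed the threshold (adjusted p = 0.11). Excess effects that shifted downward included Slc35a2 (-0.76 ± 0.14 SE; adjusted p = 1e-04) and Slc16a1 (-0.73 ± 0.17 SE; adjusted p = 0.0015). Without the 8 arrays 16 passed, 13 of them in common, against 13.4% of all genes, and the value of Slc16a1 was -0.56 (adjusted p = 0.076). The difference for Slc30a1, -1.42 ± 0.50 (SE), was -0.18 (adjusted p = 0.83) without them. Between day 21 and day 14, a comparison added after the excess results had been seen, 9 passed, 7.44% against 8.61% of all genes (3.94% higher and 4.67% lower), and 3 without the 8 arrays, against 3.22% of all genes: Slc29a1, Slc1a3 and Slc8a1. The value of Slc1a3 here ran from 0.01 to 0.48 over the alternatives. It missed the threshold in 2 of 32, with the mean of the passing probe sets (0.01; adjusted p = 0.99) and with serials up to 45 alone (0.41; adjusted p = 0.087).

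Other transport genes gave the surroundings. The 9 carriers left out of the class all passed the filter, with 0 higher and 4 lower in excess medium at day 7, 1 and 5 at day 14, and 2 and 4 at day 21. Over all genes in excess medium, 0.275% were higher and 2.1% lower at day 7, 22.3% and 18.8% at day 14, and 24.4% and 19.3% at day 21. ABC transporters, which pump with ATP, had 18 of 37 measured, with 1 higher and 2 lower at day 14 and 5 and 4 at day 21. Organic anion carriers of the Slco family had 2 of 13 measured and sodium pump subunits 2 of 3 on the array. In deficient medium at day 21, 1 of the 9 carriers left out was higher, against 0.407% of all genes. None of the ABC, Slco or sodium pump genes passed there.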

How the data were processed

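The authors deposited 1 table of log2 expression values for 43 arrays, made with GCRMA per the submitters' processing notes, which also name limma and give no versions. GCRMA corrects background by probe sequence, normalizes by quantiles and summarizes each probe set, so low values are close to background and folds against them are compressed. Scanner files were not used here. No depth applies to arrays, and their number limits the precision. Groups came from the sample titles.

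Of 31099 probe sets, 20826 had 1 gene symbol in the platform annotation, 436 had several and 9831 had none, and neither of these was named. The 57 control probe sets were left out. All 121 members matched RefSeq (GRCr8), and 0 symbols changed. The filter (log2 above 4 on at least 4 arrays, highest mean per gene) left 9095 of 14217 genes. All arrays entered one limma 3.58.1 model of the 9 group means under R 4.3.3 (34 residual and 4.12 prior degrees of freedom), tested on simulated data. Tests were two-sided, and p-values were adjusted by Benjamini-Hochberg over all genes tested in each of 10 comparisons. Levels are not compared between probe sets.

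The members, the substrate classes and the marker lists were chosen with earlier results of these data known. Genes were named by rule: for folate, up to 12 largest rises and 12 largest falls past the threshold, and for time and differences of effects, up to 3 each way per class, besides vitamin carriers and the genes at the filter's edge. The comparison of excess effects at days 21 and 14, the set lacking the 8 arrays with a beta-actin difference over 2, and the placing of 2 symbols (Slc4a1ap and family 49) in classes were added after seeing the data. Alternatives covered the filter, probe sets, quantile normalization, array series, array weights, beta-actin covariate, variance trend, groups fitted, replicate block and each array left out. Promoter windows came from RefSeq, and figures were drawn with matplotlib 3.10.9 under Python 3.11.15.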

Additional observations from a re-analysis of the deposited data

Results flagged for a closer look

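Among the 10 members whose values were examined array by array, 8 of 90 groups held an array far from the others of its group by Dixon's criterion, and chance marks about 1 in 20 groups. Slc16a7 had 3 of them: its lowest excess array at day 7 read 6.17, its highest deficient array at day 21 read 7.31 and its highest excess array at day 21 read 8.13. The highest excess array of Slc1a3 at day 21 read 7.22, and the lowest deficient array of Slc29a1 at day 7 read 2.30. The highest excess array of Slc16a1 at day 7 read 8.64, and the highest excess array of Slc2a4 at day 14 read 6.19. The highest sufficient array of Slc30a1 at day 14 read 5.38.

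The excess effect differed between day 21 and day 7, by the test of the difference in limma, for 27 carriers, 22.3% of the 121 against 24.5% of all genes (17% higher and 7.53% lower). In log2 units, the upward differences were Slc29a1 (1.75), Slc16a7 (1.10), Slc1a3 (1.00), Slc38a4 (0.70), Slc12a2 (0.67), Slc39a13 (0.57), Slc25a12 (0.49), Slc25a28 (0.47), Slc30a6 (0.28). The downward differences were Slc25a3 (-0.20), Slc66a3 (-0.22), Slc39a7 (-0.35), Slc17a6 (-0.41), Slc33a1 (-0.42), Slc8a1 (-0.42), Slc2a3 (-0.44), Slc25a27 (-0.51), Slc4a3 (-0.51), Slc25a16 (-0.53), Slc39a14 (-0.53), Slc43a2 (-0.53), Slc23a2 (-0.54), Slc44a2 (-0.59), Slc48a1 (-0.65), Slc16a1 (-0.73), Slc35a2 (-0.76), Slc30a1 (-1.42). Of these 27, 13 also passed once the 8 arrays with a beta-actin difference over 2 were left out, and Slc30a1 did not (-0.18; adjusted p = 0.83). Over the alternatives, Slc25a28 missed the threshold in 18 of 31, Slc25a3 in 17, Slc33a1 in 16, and Slc4a3 and Slc25a27 in 15 each. Slc17a6 missed it in 16 of 30. Others, such as Slc29a1, Slc16a7, Slc12a2 and Slc35a2, missed it in 0. Slc39a14 reached 4.30 at most on any array, close to background. With the mean of the passing probe sets, Slc1a3 did not pass either (0.30; adjusted p = 0.11). Slc29a1 lay below the filter level of 4 in excess and sufficient medium at day 7, where an effect could go unseen.

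Between day 21 and day 14 the excess effect differed for 9 carriers, 7.44% of the 121 against 8.61% of all genes. The upward differences were Slc29a1 (1.84), Slc1a3 (0.41), Slc25a5 (0.30), and the downward ones Slc6a6 (-0.44), Slc38a9 (-0.53), Slc35a2 (-0.55), Slc16a1 (-0.62), Slc22a5 (-0.69), Slc8a1 (-0.79). Without those 8 arrays 3 of the 9 passed. With the mean of the passing probe sets, the value of Slc1a3 was 0.01 (adjusted p = 0.99).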

How the results depend on the processing

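The numbers of carriers called were recomputed under 12 alternatives and with each array left out, one choice at a time. For deficiency at day 21, called 1 in the main fit, the count was 6 with the array series as covariate, 7 with array weights, 2 with the beta-actin covariate, and 0 with the mean of probe sets, no filter, quantile normalization, only the groups compared, serials up to 45 and the replicate block. For deficiency at day 14 and for the difference of deficiency effects, it was 1 instead of 0 with array weights, and for the latter also with the array series as covariate. For excess at day 7, called 2, it was 5 with the array series as covariate, 6 with serials up to 45, 11 with array weights, 0 with only the groups compared, and 1 with no filter, quantile normalization, the beta-actin covariate, the intensity trend and with the 8 arrays of high beta-actin difference left out. For excess at day 14, called 52, it was 27 with serials up to 45 and 30 without these 8 arrays, and for the excess effect at day 21 minus day 7, called 27, it was 16 without those arrays. For the excess effect at day 21 minus day 14, called 9, it was 21 with array weights, 14 with the beta-actin covariate and 3 without those arrays. The other counts stayed within 1.5 times. For deficiency at day 21 a count of 1 did not always mean the same gene. With the intensity trend the gene called was higher, and without the 8 arrays it was lower, and neither was Slc1a3. The cause of these changes was not tested.

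Leaving out single arrays gave 0 to 1 calls for deficiency at days 14 and 21, 1 to 8 for excess at day 7, 39 to 53 at day 14, 48 to 56 at day 21, 66 to 71 for time, 20 to 28 for the excess effect at day 21 minus day 7 and 7 to 14 at day 21 minus day 14, with 0 for deficiency at day 7 and for the difference of deficiency effects. The Slc1a3 call for deficiency at day 21 was lost without deficient replicate 3, 4, 5 or 6 or sufficient replicate 2, 3 or 4. The count for excess at day 7 was 8 without excess replicate 6, 5 without sufficient replicate 5 or 6, and 1 without excess replicate 1, 3 or 4 or sufficient replicate 1 or 2. The 14 calls between days 21 and 14 came without excess replicate 4 of day 14. One named value changed sign: Slc24a3 in excess medium at day 21 was -0.02 with the mean of its probe sets. Deviations of arrays with the same replicate number from their group means correlated with r from -0.54 to 0.59, over 3 or 4 pairs per comparison. So few pairs cannot tell whether the numbers mark shared cultures, which the labels do not say. With the replicate block the counts were 46, 54 and 73 for excess at days 14 and 21 and for time. They were 24 and 7 for the 2 differences of excess effects, and 2 for excess at day 7.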
